A study of Mus musculus with 32 samples.

Results

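Clones 8 and 4 are pre-B-cell clones, each grown from a single cell of B6/Cast F1 bone marrow by limiting dilution, and their Igκ rearrangement repertoires were compared at 48 h after IL-7 removal. They are 2 of the 32 samples of the series, of which 10 are VJ-seq libraries, and each clone is represented by 1 library in the table of clones at 48 h. Both clones have the same genotype, a C57BL6 (B6) chromosome and a Castaneous (Cast) chromosome, came from young adult female mice, and were cultured on irradiated ST2 feeder cells with IL-7 before it was withdrawn. The sample labels and the methods name no treatment or transgene that separates them, so that 2 clones derived by the same protocol are compared. Whether they differ by a deletion or in passage was not tested. Clone 4 was sequenced a second time at 48 h as the last point of a time course, and that smaller library is used here as the only available measure of how far 2 libraries of one clone can differ. The labelled cell type cannot be checked against marker genes, since the tables count reads on Vκ segments alone.

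The Igκ locus encodes the light chain that most mouse B cells carry. In pre-B cells the RAG recombinase joins one of many variable (V) segments to one of a few joining (J) segments, and the loss of IL-7 signalling opens the locus to this step. Each V segment is flanked by a recombination signal sequence (RSS) made of a heptamer, a spacer of 12 bases and a nonamer. Because an F1 cell carries 2 distinguishable copies of the locus, rearranged transcripts that span a sequence difference can be assigned to the B6 or the Cast allele.

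The counts cover the V segments of the locus on each allele. Of these, 111 were found by name on chromosome 6 (mm10, GENCODE M21), 98 annotated as functional genes and 13 as pseudogenes, and 1 was not found. Segments carry a family number and, after the dash, a position number that falls toward the J segments, except that Igkv4-60 lies nearer to them than Igkv4-59. A few segments are given by their Ensembl identifier, matched to their symbols in the account of the processing. Here numbers up to 43 are called proximal, 44 to 93 middle and 94 or more distal. The clone 8 library held 119020 reads, 74838 on B6 and 44182 on Cast. The clone 4 library held 64672 reads, 46406 on B6 and 18266 on Cast, and the second clone 4 library held 10958. The level of a segment is given as the percent of all reads on its allele (percent of allele), or of all reads of the library where stated. A level of 3 reads, taken as the detection limit, is 0.00401% of the B6 and 0.00679% of the Cast allele in clone 8, and 0.00646% and 0.0164% in clone 4. All intervals are 95% intervals, which cover counting error only, because reads amplified by PCR without molecular identifiers are not independent molecules. With 1 library of each clone in the table of clones at 48 h, no p-value is given. A segment was counted as different when it had at least 20 reads over both libraries on the allele and differed by 2-fold or more.

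The RSSs of the segments on which the comparison turns are printed first, as the reference B6 genome holds them (RefSeq, GRCm38.p6, the sequence of mm10), 5′ to 3′ on the strand of the segment, with heptamer and nonamer in capitals and the spacer in lower case. The first 3 belong to segments that differed on the B6 allele, the following 6 to segments higher on the Cast allele in clone 8, and the last 3 to Igkv6 segments lower in clone 8 on both alleles.
Igkv4-54 (chr6:69631620-69631647, minus): CACAGTGatacagactagaACAAAAACC
ENSMUSG00000096632.2, an Igkv9 segment (chr6:67942046-67942073, minus): CACAGTGatacaaattataACATAAACC
Igkv10-96 (chr6:68631935-68631962, minus): CACAATGatataagtcataACATAAACC
Igkv19-93 (chr6:68736269-68736296, minus): CACAGTGatacaaatcataACAAAAACC
Igkv16-104 (chr6:68426073-68426100, plus): CACAGTGatacaagtcataACAAAAACC
The only Igkv15 segment (chr6:68437926-68437953, plus): CACAGTGatataagtcatgACACAAACC
Igkv4-92 (chr6:68755010-68755037, minus): CACAGTGctacagagtggaACAAAATGC
Igkv4-79 (chr6:69042944-69042971, minus): CACAGTGaaacagactagaACAAAAACC
Igkv5-37 (chr6:69963284-69963311, minus): CACAGTGatgcagaccataGCAAAAACC
Igkv6-32 (chr6:70073996-70074023, minus): CACAGTGcttcagcctcctACACAAACC
Igkv6-25 (chr6:70215958-70215985, plus): CACAGTGcttcagccttctACATAAACA
Igkv6-20 (chr6:70335813-70335840, minus): CACAGTGcttcagcctcccACATAAACA
An RSS with a 12-base spacer was found beside 107 of the segments, searched on the segment's own strand. The heptamer CACAGTG was present without a mismatch in 94 of these (87.9%) and the nonamer ACAAAAACC in 38 (35.5%). Segments on the minus strand lie opposite to the J segments and join by inversion, those on the plus strand by deletion.

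The repertoires of the clones were close on both alleles. On the Bray-Curtis scale, where 0 marks equal repertoires and 1 repertoires with no segment in common, the dissimilarity between clones 8 and 4 was 0.212 on B6 and 0.203 on Cast. Between the 2 libraries of clone 4 it was 0.242 on B6 and 0.305 on Cast, above the values between the clones. The second library held only 10958 reads, so that counting error adds more to every dissimilarity measured against it. The other libraries were not thinned to its depth, so how much of the gap is due to depth was not tested. Against the second clone 4 library, clone 8 lay at 0.347 on B6 and 0.366 on Cast. Its dissimilarity to clones 3, B52 and E9-3 ranged from 0.395 to 0.482 on B6 and from 0.443 to 0.617 on Cast. Clone 4 lay closer to clone 3, at 0.314 on B6 and 0.345 on Cast, which is not far above the values between its own libraries. Clone 8 lay at 0.322 from the pre-B-cell pool on B6, below its distance to the second clone 4 library. Across segments read in either clone, Spearman's rho between percent of allele in clones 8 and 4 was 0.893 on B6 (102 segments) and 0.912 on Cast (85 segments), given as a description, since the segments of a library share its depth.

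Almost every segment read in one clone was read in the other. On B6, 99 segments had reads in both, 1 in clone 8 alone, with 2 reads, and 2 in clone 4 alone, of which Igkv4-54 is described below. On Cast, 78 segments had reads in both, 4 in clone 8 alone and 3 in clone 4 alone, none of these with more than 2 reads. The 20 leading segments of the clones had 16 in common on each allele, and the leading 10 had 5 in common on B6 and 6 on Cast. The leading 10 made up 36.9% of B6 reads in clone 8 and 36.1% in clone 4, against 56.4% and 54.7% of Cast reads, so that the Cast repertoire was the more concentrated in both.

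On the Cast allele the leading segment of both clones was the one farthest from the J segments, the functional Igkv2 gene ENSMUSG00000076501.2 (chr6:67555497-67556216, plus strand). It took 12.8% of Cast reads in clone 8 and 14.4% in clone 4, but 2.04% in the second clone 4 library. Igkv11-106, annotated as a pseudogene and without B6 reads in either clone, took 6.10% in clone 8, 7.63% in clone 4 and 331 of the 2550 Cast reads in the second library. Igkv14-111 held rank 4 in both clones, at 5.92% and 5.85%, and Igkv9-120 was at 3.56% and 4.43%. These distal segments therefore differed by at most 1.25-fold between the clones, less than between the clone 4 libraries for the first of them.

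On the B6 allele no single segment led to that degree. Igkv6-15, a proximal segment, took 4.48% of B6 reads in clone 8 and 4.53% in clone 4, and Igkv8-30 took 4.15% and 3.78%. Igkv4-59 and Igkv4-57, both in the middle of the locus, held ranks 1 and 3 in clone 8 at 4.95% and 4.20%, and stood at 2.77% and 2.40% in clone 4. Igkv19-93 led clone 4 at 5.14% and had rank 5 in clone 8 at 3.63%. In the second clone 4 library it reached 10.5%, and Igkv4-68, at 3.61% in clone 8 and 2.49% in clone 4, had 0 reads there. Both of these segments thus moved further between the libraries of clone 4 than between the clones.

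**Figure D1:**
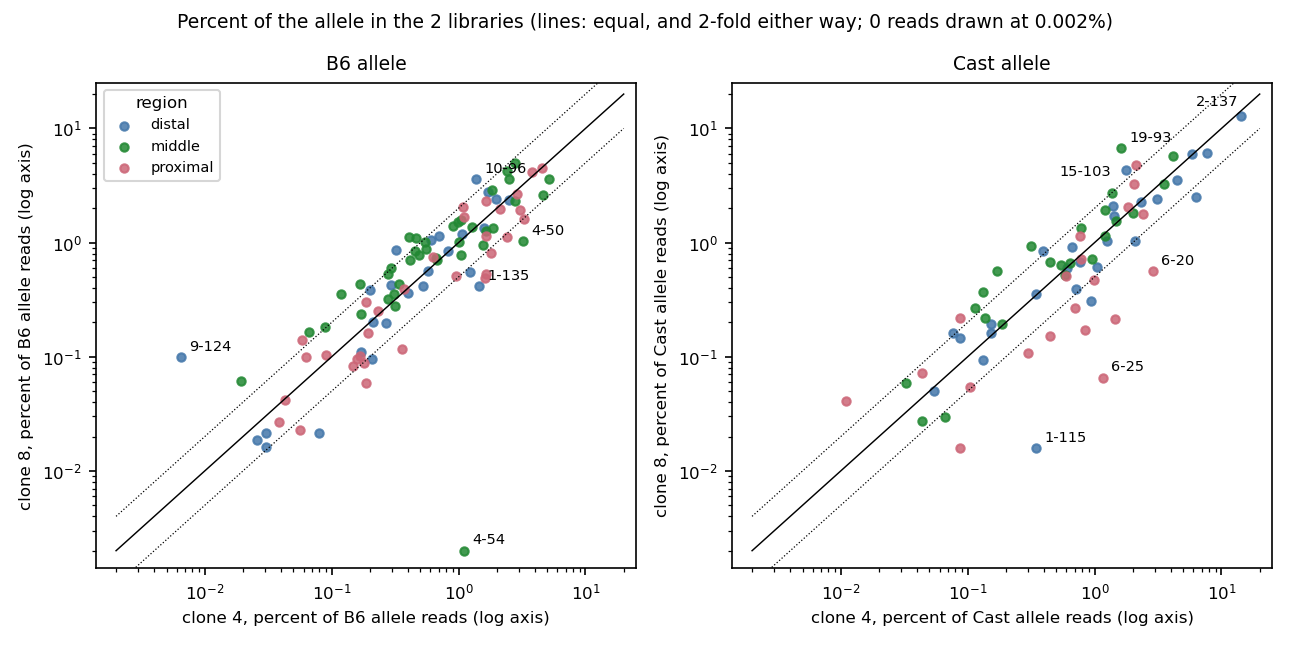
Percent of the allele of each segment with 20 or more reads over both libraries, in clone 4 (horizontal, log axis) and clone 8 (vertical, log axis), for B6 (left) and Cast (right). Points are coloured by region, lines mark equal levels and 2-fold either way, most points lie between the dotted lines, and Igkv4-54, with 0 B6 reads in clone 8, lies at the floor of the left panel.

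Allelic ratios were shared as well. Of the 100 segments with at least 10 reads in both libraries, 88 had most of their reads on the same allele. These were 70 on B6 and 18 on Cast. Most reads were on opposite alleles for 11 (11%), and 1 segment stood at 50% in 1 library. Of the 71 segments with 3 or more reads on each allele over both libraries, 59 had most reads on the same allele and 11 on opposite alleles. Between clone 8 and the second clone 4 library, 63 of 82 segments had most reads on the same allele and 19 on opposite alleles. Over 80% of reads fell on B6 in both clones for 45 segments and on Cast in both for 7. Those on B6 included 17 of 28 Igkv4, 8 of 10 Igkv8, 7 of 8 Igkv3 and 6 of 8 Igkv6 segments, and by region 21 of 34 proximal, 19 of 37 middle and 5 of 29 distal segments. The 7 on Cast, 5 of them distal, included Igkv9-128, Igkv1-122, Igkv11-106, Igkv12-40 and Igkv8-16. The median absolute difference of the B6 share between the clones was 3.55 percentage points over the 100 segments. Of these, 27 had under 3 Cast reads in each library, which leaves little room for a difference. Over the 68 segments with 3 or more reads on each allele in each library, the median was 8.40 points. Over the 82 of the 100 segments that also had 10 reads in the second clone 4 library, it was 6.07 points between clones 8 and 4. Between the clone 4 libraries, the second read at lower depth, it was 7.90 points.

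Much of this shared skew was also seen in the other clones. Of the 40 B6-skewed segments with at least 10 reads in each of clones 3, B52 and E9-3, 24 were over 80% on B6 in all of them, and 5 of the 6 Cast-skewed segments with that many reads were over 80% on Cast in all of them. Of these segments, 1 (Igkv4-73) was mostly on the other allele in all 3 clones. No Cast read was seen in either clone for 18 segments, and 14 of these had none in clones 3, B52 and E9-3 either, whereas Igkv4-73, Igkv4-59 and Igkv3-2 had more than 3 Cast reads there. Igkv4-59 also had 30 Cast reads beside 64 on B6 in the second clone 4 library. The pseudogene Igkv4-73 had 632 B6 and 0 Cast reads in clone 8 and 212 and 0 in clone 4, against B6 shares of 8.45% in clone 3, 45.6% in B52 and 16.7% in E9-3, while the second clone 4 library had 1 B6 and 4 Cast reads and the pool 461 and 0. Igkv1-135, a distal functional gene, was mostly on Cast in both clones, with B6 shares of 21.7% in clone 8 and 36.9% in clone 4, but mostly on B6 in clone 3 (73.5%), B52 (68.7%) and E9-3 (69.1%). The 3 segments without B6 reads in both clones, Igkv11-106, Igkv12-40 and Igkv9-128, had none in the other clones. Whether a segment is missing from an allele or could not be assigned to it was not tested.

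Against the other clones, a feature that clones 8 and 4 shared was the near absence of Igkv3 reads on Cast. The 9 Igkv3 segments, which lie closest to the J segments, made up 0.177% of Cast reads in clone 8 and 0.175% in clone 4. In the second clone 4 library they made up 0.0784%, under its limit of 3 reads (0.118%). They made up 11.5% in clone 3, 44.7% in B52 and 29.8% in E9-3. On B6 the same family stood at 7.85% in clone 8 and 5.96% in clone 4, so that its B6 share was 98.7% and 98.9%. Clones 3, B52 and E9-3 were higher on B6 too, at 17.3%, 42.8% and 20.5%. Igkv3-7, for example, had 18 Cast reads in clone 8 and 2 in clone 4, or 0.0407% and 0.0109% of the allele, against 27.7% in B52.

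Other segments were higher in both than in clones 3, B52 and E9-3. Igkv5-45, a middle segment, held 1.81% of Cast reads in clone 8 and 2.03% in clone 4, against 0.0186% in clone 3 and 0 reads in B52 and E9-3. The pool had 1.02% there. Igkv14-111 held 2.77% and 1.72% of B6 reads, against at most 0.505% in the other 3 clones, while the pool, at 1.89%, lay between clones 8 and 4. ENSMUSG00000076518.6, a distal Igkv2 segment, was at 1.05% and 0.606% on B6 and at 2.08% and 1.40% on Cast, and the highest value among clones 3, B52 and E9-3 was 0.250% on B6 and 0.313% on Cast, while the pool was at 0.651% and 0.584%. Counting segments with 50 or more reads summed over 5 clones, clones 8 and 4 both stood at least 2-fold above all of clones 3, B52 and E9-3 for 12 of 97 on B6 (12.4%) and 14 of 75 on Cast (18.7%), and at least 2-fold below them for 5 (5.15%) and 11 (14.7%). In the second clone 4 library most of the raised B6 segments were not raised, since 2 of the 12 stood 2-fold above the other clones there and 4 had 0 reads. Of the 14 raised on Cast 9 did so, and of the lower segments 4 of 5 on B6 and 8 of 11 on Cast were 2-fold below. Raised here means relative to clones 3, B52 and E9-3. Among the 12 raised on B6, the pool was above clones 8 and 4 for some, such as Igkv4-55 (1.66%). It was below them for others, such as Igkv4-73 (0.250%). The division into these clones was drawn with the counts known, so these counts describe it and do not test it.

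Within this likeness, 27 of 97 segments on B6 (27.8%) differed by 2-fold or more between the clones, 12 higher in clone 8 (12.4% of those tested) and 15 lower (15.5%). On Cast 25 of 70 (35.7%) did, 11 higher (15.7%) and 14 lower (20%). As percent of the library, 20 Cast segments were higher and 10 lower. Against the second clone 4 library the balance on B6 turned, with 31 higher and 19 lower, and on Cast there were 13 higher and 22 lower. The same rule called 34 of 93 segments (36.6%) on B6 and 30 of 63 (47.6%) on Cast between the 2 libraries of clone 4. Counting error in the smaller second library adds to these shares by an amount that was not measured. A difference of 2-fold is thus no larger than libraries of one clone show, and weight is given here to segments that differed in the same direction by 2-fold or more against both clone 4 libraries. The 2 comparisons share the clone 8 library. On B6, 9 of the 12 higher and 8 of the 15 lower segments did so, which is 9.57% and 8.51% of the 94 segments tested against both. Among the 9, Igkv4-62 had 0 reads in the second library and 0.0615% of B6 reads in clone 8. That is less than 2-fold above the detection limit of the second library, 0.0357% of B6, so a 2-fold difference is not shown there. Igkv18-36 and the most distal segment were lower against the first library and, by these ratios, 2-fold or more higher against the second. Igkv18-36 had 0.0119% of B6 reads in the second library, under this limit. Its 0.0588% in clone 8 was less than 2-fold above the limit. On Cast, 6 of the 11 higher and 10 of the 14 lower did so, 8.96% and 14.9% of 67, and Igkv8-30 turned from lower to higher. Among the 6, Igkv1-99 was at 0.161% of Cast reads in clone 8. That is less than 2-fold above the detection limit of the second library, 0.118% of Cast. The threshold fell among close values, since Igkv1-99 was called higher on Cast at 2.04-fold and Igkv4-58 was not at 1.98-fold.

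**Figure D2:**
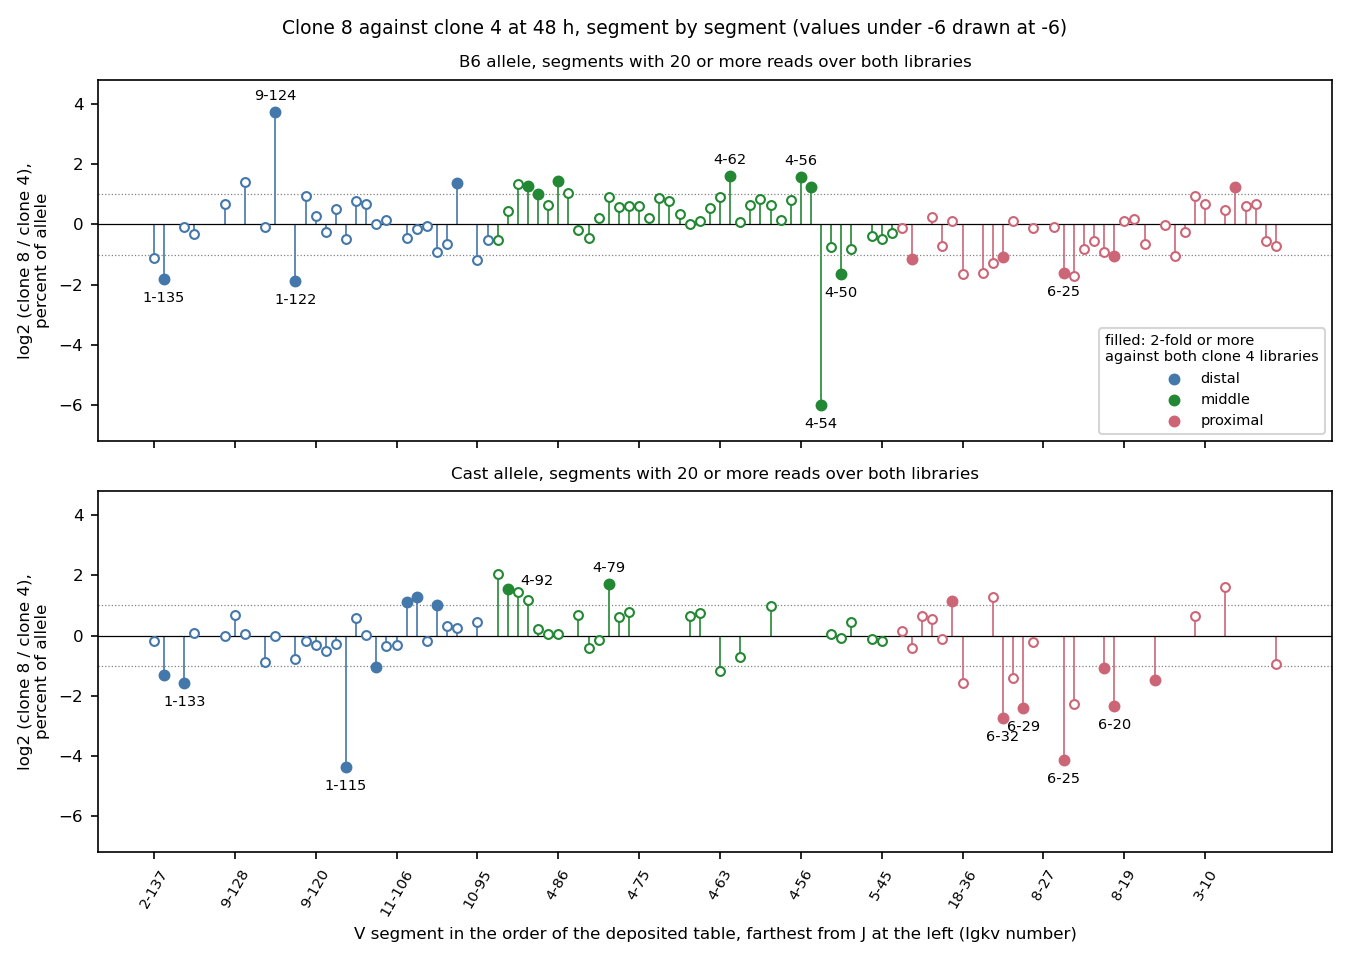
Log2 ratio of percent of allele, clone 8 over clone 4, for each segment with 20 or more reads, in the order of the deposited table from distal (left) to proximal (right), for B6 (top) and Cast (bottom). Colours mark regions, dotted lines 2-fold and filled points a difference of 2-fold or more against both clone 4 libraries, and Igkv4-54 on B6 is drawn at the lower limit of the axis.

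The most marked difference on B6 was the absence of Igkv4-54 from clone 8. This functional gene (chr6:69631646-69632178, minus strand) had 510 B6 reads in clone 4, 1.10% of the allele, and 48 reads in the second clone 4 library, 0.571%. Clone 8 had 0 of 74838 B6 reads, which allows up to 0.00401%, so that the level was at least 274-fold lower than in clone 4 by this limit of 3 reads, and the exact interval of the ratio starts at 222-fold. It was also at 0 in B52, and at 0.0825% in clone 3, 0.120% in E9-3 and 0.163% in the pre-B-cell pool. Neither clone had Cast reads on it. Its closest relative in annotated sequence, Igkv4-61 (96.9% identical, 11 of 352 aligned bases differing), had 0.708% of B6 reads in clone 8 and 0.674% in clone 4, a ratio of 1.05 (interval 0.911 to 1.21). Reads of 2 such similar segments could have been exchanged by the alignment, which was not tested.

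The distal Igkv9 segment ENSMUSG00000096632.2, a functional gene, was the opposite case at a low level. It had 74 B6 reads in clone 8 (0.0989%), 3 in clone 4 (0.00646%) and 0 of 8408 in the second library. The ratio of clone 8 to clone 4 was between 5.03 and 75.9 by the counting interval. Clone 8 resembled clones 3, B52 and E9-3 here, which had 0.0837%, 0.0506% and 0.158%. On Cast the segment was level between the clones, at 2.28% in clone 8 and 2.31% in clone 4.

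Igkv10-96, a distal functional gene, contributed most to the B6 dissimilarity (5.21% of it). Its level was 3.59% of B6 reads in clone 8, 1.38% in clone 4 and 1.59% in the second library. The ratio was 2.59 (interval 2.38 to 2.83), and clone 8 stood above clones 3, B52 and E9-3 as well, which ranged from 0.976% to 1.43%. As a share of all reads of its library the segment rose from 0.991% in clone 4 to 2.26% in clone 8. The nearby Igkv10-95, which carries the same RSS sequence on the opposite strand, went the other way, with 0.548% of B6 reads in clone 8, 1.23% in clone 4 and 1.08% in the second library, 2.25-fold lower than in clone 4 and short of 2-fold against the second.

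Of the 9 segments that held as higher in clone 8 on B6, 6 were middle segments, a region with 39 of the 97 segments tested, and 5 were Igkv4, a family with 30 of the 97. Both counts include Igkv4-62, whose level in clone 8 was less than 2-fold above the detection limit of the second library. Igkv4-86 had 1.11% of B6 reads in clone 8, 0.407% in clone 4 and 0.178% in the second library, a ratio of 2.73 (interval 2.33 to 3.22). Igkv4-55 stood at 1.09%, 0.461% and 0.250%, and Igkv4-56, a pseudogene, at 0.355%, 0.119% and 0.155%. Of the 30 Igkv4 segments tested on B6, 26 had a log2 ratio above 0, against 51 of all 97 segments, with a median of 0.61 against 0.07, but 6 were called higher and 2 lower. The family moved further between the libraries of clone 4, where its median log2 ratio, first over second, was 1.04. As a whole it took 35.1% of B6 reads in clone 8, 27.5% in clone 4 and 18.6% in the second library. Igkv4-91 (ratio 2.56) and the distal Igkv17-127 (ratio 2.63) were called higher but came to less than 2-fold against the second library, at log2 0.21 and 0.69.

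Of the 8 segments that held as lower in clone 8 on B6, 4 were proximal, 2 middle and 2 distal, where 32, 39 and 26 of the 97 segments tested lay in these regions. Igkv4-50, close to the missing Igkv4-54, had 1.03% of B6 reads in clone 8, 3.22% in clone 4 and 3.81% in the second library, 3.11-fold lower (interval 2.85 to 3.40). Igkv12-41 was at 0.804%, 1.80% and 2.11%. Igkv1-135, near the distal end, was at 0.413%, 1.45% and 0.844%, 3.51-fold lower (interval 3.07 to 4.03), and clones 3, B52 and E9-3 ranged from 2.51% to 9.09%. Igkv8-24 (3.28-fold lower) and Igkv18-36 (3.13-fold lower) did not hold, since the second clone 4 library had 0.940% and 0.0119% against 0.492% and 0.0588% in clone 8.

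**Figure D3:**
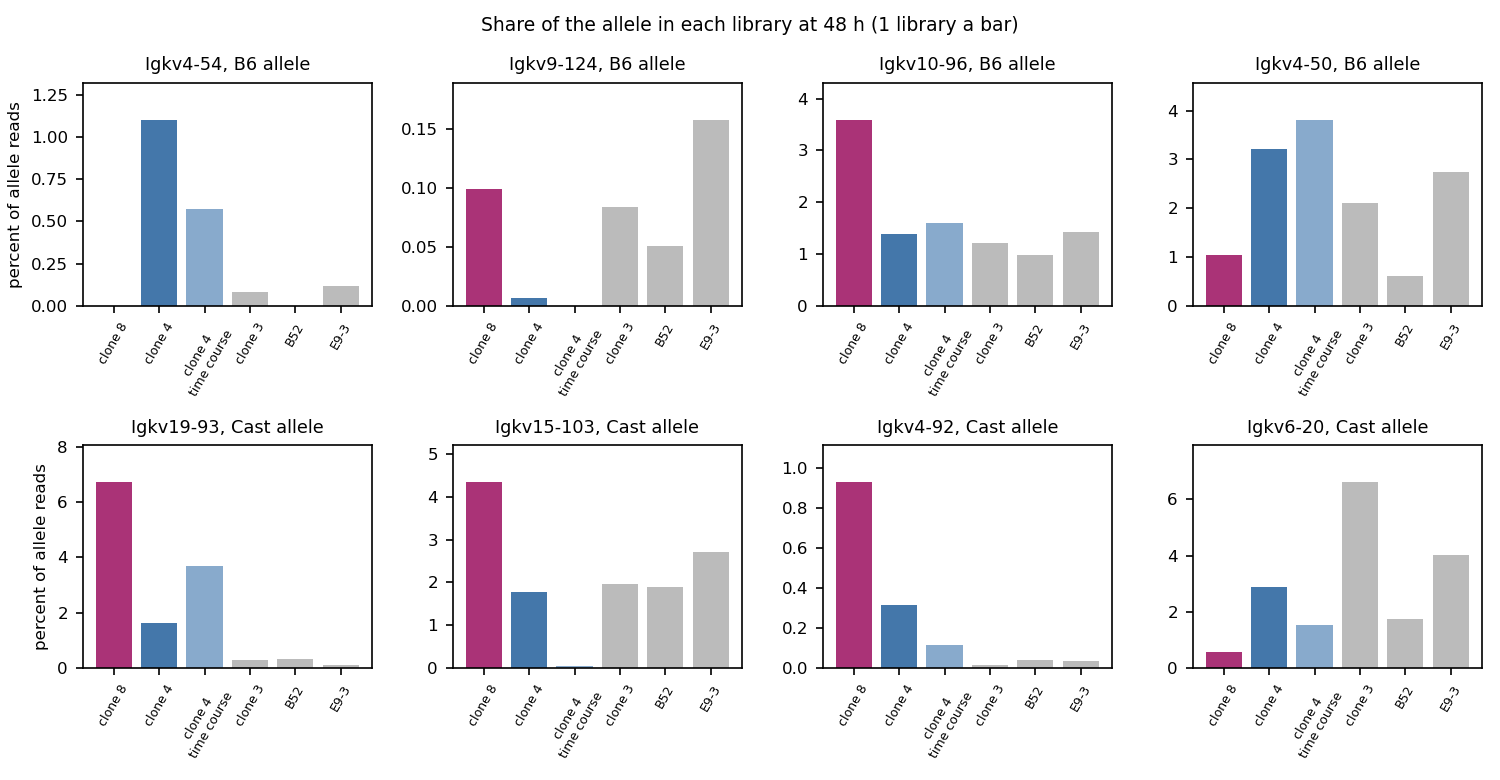
Percent of allele of 8 segments in clone 8, the 2 libraries of clone 4, and clones 3, B52 and E9-3, with 1 library a bar and each panel on its own axis from 0. Igkv4-54 has no bar in clone 8 and B52, Igkv10-96 is highest in clone 8, and the Igkv15 segment on Cast falls from 1.77% to 0.0392% between the clone 4 libraries while clone 8 is at 4.33%.

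On Cast, Igkv19-93 was the segment that set clone 8 apart most in amount. This functional gene, the farthest from J of the middle segments (chr6:68736297-68736780, minus strand), had 2965 Cast reads in clone 8, 296 in clone 4 and 94 in the second library, or 6.71%, 1.62% and 3.69% of the allele. The ratio to clone 4 was 4.13 (interval 3.67 to 4.68), and to the second library 0.86 on the log2 scale, short of 2-fold. It alone gave 12.5% of the Cast dissimilarity. As a share of its library the Cast segment rose from 0.458% in clone 4 to 2.49% in clone 8. All 3 libraries were above clones 3, B52 and E9-3, which had 0.278%, 0.321% and 0.107%, while the pool had 4.90%.

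Next to it, Igkv4-92 had 0.930% of Cast reads in clone 8, 0.318% in clone 4 and 0.118% in the second library, a ratio of 2.91 (interval 2.22 to 3.93). Clones 3, B52 and E9-3 had at most 0.0423%. The adjacent Igkv4-91 was higher by 2.74-fold, but reached only 0.32 on the log2 scale against the second library. Igkv4-91 and Igkv4-90 were the only segments called higher on both alleles, and neither held against both libraries on Cast.

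The only Igkv15 segment (ENSMUSG00000076523.2) and its neighbour Igkv16-104, both distal and on the plus strand, were higher together on Cast. The Igkv15 segment had 1915 reads in clone 8, 324 in clone 4 and 1 in the second library, or 4.33%, 1.77% and 0.0392%, with a ratio of 2.44 (interval 2.17 to 2.76) to clone 4. Igkv16-104 was at 0.844%, 0.389% and 0.0392% (1 read), with a ratio of 2.16 (interval 1.68 to 2.84) to clone 4. On B6 the pair did not reach 2-fold, at log2 -0.16 and -0.44. As a ratio, the gap between the clone 4 libraries was wider for both segments than that between clones 8 and 4.

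Igkv4-79 and Igkv5-37 completed the list of higher Cast segments that held, together with the sparse Igkv1-99. Igkv1-99 had 71 reads in clone 8, 14 in clone 4 and 1 in the second library. Its place in the list rests on that 1 read, which is under the detection limit. Igkv4-79 was at 0.559% in clone 8, 0.170% in clone 4 and 0.0392% (1 read) in the second library. Igkv5-37, a proximal segment, was at 4.74%, 2.12% and 1.53%, with a ratio of 2.24 (interval 2.01 to 2.50). For Igkv5-37 clone 8 was above all other clones, whereas Igkv4-79 reached 6.28% in B52.

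The 14 lower Cast segments included 4 of the 4 Igkv6, 4 of the 5 Igkv8 and 4 of the 9 Igkv1 segments tested, against 14 of 70 over all families. The 9 Igkv6 segments, in the proximal region, together had 0.867% of Cast reads in clone 8, 5.64% in clone 4 and 3.57% in the second library, and 13.5% in clone 3, 5.67% in B52 and 9.57% in E9-3. Clone 8 was thus the lowest of the 5 clones, by 6.50-fold against clone 4. The 4 members with enough Cast reads were all 2-fold or more lower against both libraries, with a median log2 ratio of -2.58 beside -0.02 over all 70 segments tested on Cast.

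Igkv6-25 had 29 Cast reads in clone 8, 213 in clone 4 and 4 in the second library, or 0.0656%, 1.17% and 0.157%. It was 17.5-fold lower than in clone 4 (interval 12.0 to 27.2), and at a log2 ratio of -1.40 against the second library, where it rests on the 4 reads. Igkv6-32 was at 0.215%, 1.45% and 0.824%, 6.72-fold lower (interval 5.32 to 8.62). Igkv6-20 was at 0.561%, 2.88% and 1.53%, 5.12-fold lower (interval 4.40 to 5.99). Igkv6-29 had 7, 16 and 27 Cast reads, and since it is 98.5% identical to Igkv6-20 (5 of 344 aligned bases differing), its reads could have been split between them.

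On B6 the Igkv6 family moved less. It had 9.98% of B6 reads in clone 8, 15.3% in clone 4 and 11.9% in the second library, and all 8 members tested had a log2 ratio below 0, with a median of -0.84. Of these, 4 were called lower, and Igkv6-32 (1.13%, 2.40% and 2.95%), Igkv6-25 (0.532%, 1.64% and 1.12%) and Igkv6-20 (1.60%, 3.28% and 3.69%) held against both libraries. Igkv6-15, the largest member, was level between the clones. The B6 total of clone 8 was closer to that of the second clone 4 library than the clone 4 libraries were to each other.

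Outside Igkv6, the Cast segments that held as lower were Igkv1-135, Igkv1-133, Igkv1-115, Igkv1-110, Igkv8-21 and Igkv8-16. Igkv1-135 had rank 3 in clone 4 at 6.29% and stood at 2.53% in clone 8 and 6.24% in the second library, 2.49-fold lower (interval 2.29 to 2.70). Its neighbour Igkv1-133 was at 0.310%, 0.936% and 1.69%. Igkv1-115, a pseudogene, had 7 Cast reads in clone 8, 63 in clone 4 and 26 in the second library, 20.5-fold lower than in clone 4 (interval 9.97 to 56.3). Igkv8-24 was lower by 4.85-fold against clone 4 and by 0.32 on the log2 scale against the second library, so that it did not hold, and the same was true of Igkv18-36, at 0.152%, 0.449% and 0.196%.

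**Figure D4:**
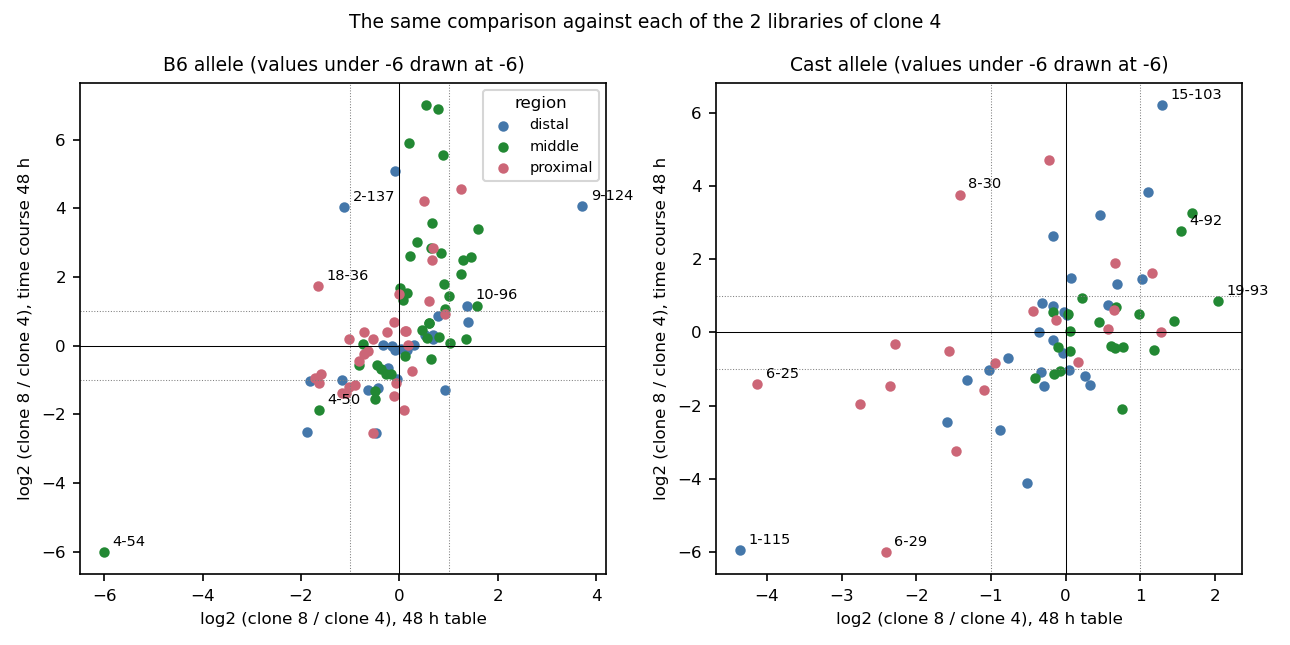
Log2 ratio of percent of allele, clone 8 over clone 4, computed with the clone 4 library of the 48 h table (horizontal) and with the second clone 4 library from the time course (vertical), for B6 (left) and Cast (right). Both axes share the clone 8 library, points are segments with 20 or more reads in both comparisons, coloured by region, dotted lines mark 2-fold, and segments beyond them in the upper right and lower left corners held.

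Of 65 segments tested on both, 2 were higher in clone 8 on both alleles and 6 lower on both (Igkv1-135, Igkv18-36, Igkv6-32, Igkv6-25, Igkv8-24 and Igkv6-20). A further 10 were called on B6 alone and 14 on Cast alone, 32 on neither, and Igkv7-33 was lower on B6 and higher on Cast. Igkv7-33 was sparse, with 17 B6 and 96 Cast reads in clone 8 and 26 and 16 in clone 4. Its log2 ratios against the second clone 4 library were 0.39 on B6 and 0.02 on Cast, so that neither call held. The log2 ratios had the same sign on both alleles in 42 of the 65.

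By region, clone 8 had more middle and fewer proximal reads on B6. Middle segments took 48.2% of B6 reads in clone 8, 44.9% in clone 4 and 44.5% in the second library, and proximal segments 30.3%, 36.7% and 34.2%. On Cast the middle region rose from 21.8% in clone 4 to 32.1% in clone 8, but the second clone 4 library was at 31.2%, so that the difference was within the spread between clone 4 libraries. Distal segments held 51.3% of Cast reads in clone 8, 58.4% in clone 4 and 51.9% in the second library, and 21.4%, 18.4% and 21.3% of B6 reads. The distal preference of the Cast allele and the middle preference of the B6 allele were present in all 3 libraries. Segments on the minus strand, which join by inversion, made up 71.4% of B6 reads in clone 8 and 71.8% in clone 4, and on Cast 50.5% and 42.8%, with 52.2% in the second library.

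The RSSs of the Cast chromosome were not examined here, so that the counts that follow use the B6 sequence for both alleles. Among segments with an identified RSS, the exact nonamer was present in 5 of the 11 called higher on Cast, 1 of the 14 called lower and 13 of the 45 called neither. On B6 it was present in 5 of 11, 4 of 15 and 27 of 69. The nonamer also differed along the locus, with 24 of 38 middle, 11 of 37 proximal and 3 of 32 distal segments carrying it, and the calls were not compared within regions.

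The allelic balance of the libraries was tilted to B6 in both clones and less so in clone 8. Of all reads, 62.9% (interval 62.6 to 63.2) were on B6 in clone 8, 71.8% (interval 71.4 to 72.1) in clone 4 and 76.7% (interval 75.9 to 77.5) in the second clone 4 library. The gap of clone 8 to clone 4 in all reads was larger than that between the clone 4 libraries, but as the median over segments the B6 share was 78.0% in clone 8 and 80.3% in clone 4. Among segments, the B6 share was at least 10 points lower in clone 8 for 24 of 100 (24%) and at least 10 points higher for 4 (4%). Of the 82 segments with enough reads in the second library, 18 were at least 10 points lower in clone 8 than in each clone 4 library and 2 were at least 10 points higher.

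Igkv19-93 showed the largest fall among well-read segments. B6 held 47.8% of its reads in clone 8 (interval 46.5 to 49.1), 89.0% in clone 4 (interval 87.7 to 90.1) and 90.4% in the second library (interval 88.4 to 92.1). It held 94.1% in clone 3, 96.3% in B52 and 96.8% in E9-3, so that clone 8 was the only one of the 5 clones in which the Cast allele matched the B6 allele. In the pre-B-cell pool B6 held 49.2%, close to clone 8. The fall of 41.1 points against clone 4 (interval 39.3 to 42.8) came with the rise of Cast reads given above and a B6 level 1.41-fold lower.

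Igkv5-48, a middle segment, fell in the same way, from 73.7% in clone 4 and 73.2% in the second library to 43.6% in clone 8 (interval 42.2 to 45.1). Clones 3, B52 and E9-3 were at 68.0%, 61.3% and 79.1%. Its level was 1.77-fold lower on B6 and 1.37-fold higher on Cast, so that neither allele alone passed 2-fold. Igkv4-50 fell from 87.2% and 84.2% to 60.6%, and Igkv10-95 from 82.5% and 97.8% to 50.4%.

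Igkv16-104 went from 63.8% in clone 4 and 97.5% in the second library to 28.5% in clone 8, and its Igkv15 neighbour from 36.6% and 96.8% to 12.4%. Igkv4-92 was at 57.7%, 82.4% and 30.0%. In the family Igkv12, Igkv12-41 fell from 65.5% and 85.5% to 43.3%, and Igkv12-46 from 54.3% and 60.5% to 39.5%. The 5 Igkv5 segments were each lower in B6 share in clone 8 than in either clone 4 library, as were 36 of the 82 segments with enough reads in all 3 libraries, and the family as a whole stood at 45.5%, 70.5% and 81.5%.

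In the other direction the differences were smaller, apart from the sparse Igkv1-115. Igkv6-25 was at 93.2% in clone 8 and 78.2% in clone 4, but at 95.9% in the second library, so that clone 8 lay between them. The same held for Igkv6-32 (89.9%, 80.8% and 92.2%) and Igkv6-20 (82.9%, 74.3% and 88.8%). Igkv4-86 was at 74.0% in clone 8, 62.0% in clone 4 and 48.4% in the second library, and Igkv17-127 at 80.2%, 70.4% and 71.0%. Igkv1-115 was at 66.7% in clone 8 on 21 reads, 16.0% in clone 4 on 75 and 25.7% in the second library on 35.

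The most distal segment was almost wholly on Cast, with B6 shares of 1.26% in clone 8 and 3.56% in clone 4. The distal Igkv9 segment was mostly on Cast as well, with B6 shares of 6.83% and 0.706%. Near an even ratio, the distal Igkv2 segment ENSMUSG00000076518.6 stood at 46.0% and 52.4% and Igkv18-36 at 39.6% (interval 31.0 to 48.9) and 51.2% (interval 43.7 to 58.6). Both changed the allele with most reads, but the interval in clone 4 held 50% for each.

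**Figure D5:**
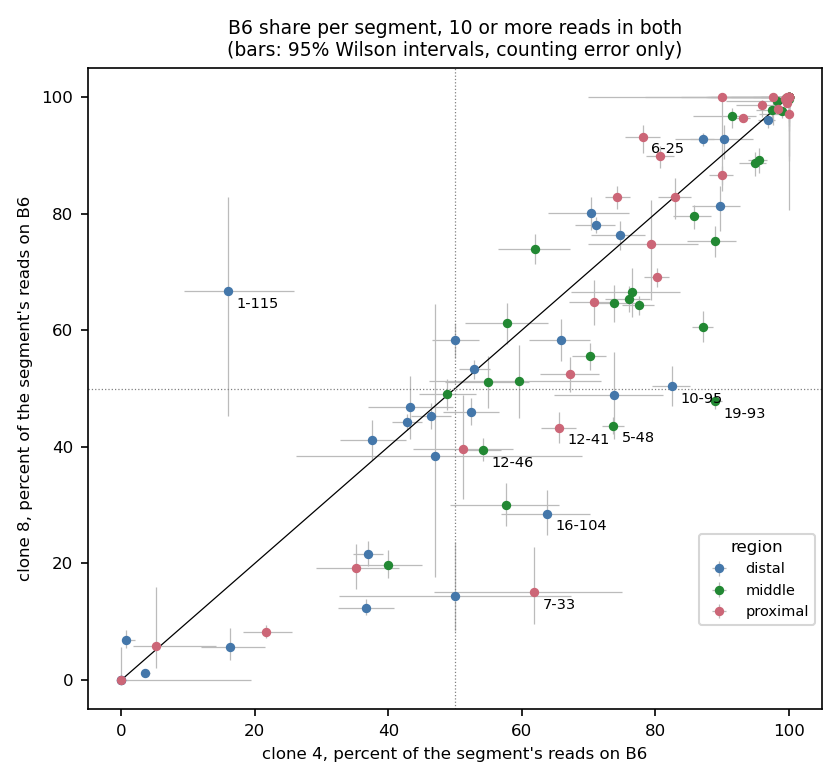
Percent of reads on B6 for each of the 100 segments with 10 or more reads in both libraries, in clone 4 (horizontal) and clone 8 (vertical), with 95% Wilson intervals and colours for regions. Points on the diagonal have the same allelic ratio in both clones, dotted lines mark 50%, and Igkv19-93 lies far below the diagonal at 47.8% against 89.0%.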

How the data were processed

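Igκ transcripts were primed for cDNA synthesis in Cκ, and VJ-seq libraries were made from them by ligation-mediated PCR. Per the paper's methods, the authors trimmed reads, mapped them to a combined B6/Cast genome (mm10) using Bowtie2 and assigned them to V segments using HTSeq. The deposited values are read counts per segment and allele, with no normalization applied. Program versions are not given in the sources used here. Percent of allele, percent of library and B6 share were derived from the counts with pandas 2.3.3 and NumPy 2.4.6 in Python 3.11.15, intervals with SciPy 1.17.1, and figures with matplotlib 3.10.9. Ratios add 0.5 reads to each count and need 20 reads over both libraries, whereas B6 shares need 10 in both. Intervals are Wilson intervals for shares, Newcombe intervals for their differences and exact conditional intervals for ratios, all at 95%. Each clone has 1 library, so no count model was fitted. The fold rule was run on simulated counts with scaling by the median ratio over segments, not by percent of allele. Those counts held counting error alone, without the spread between libraries, so that run does not bear on the reported calls. Gene types and positions are those of GENCODE M21, RSSs were read from the GRCm38.p6 genome beside the annotated end of each segment, and identity came from alignments with Biopython 1.88.

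Segments and lists were chosen with earlier results of these data known. Named are the 5 leading segments of each clone on each allele, the 5 largest ratios each way with at least 100 reads, the 5 largest differences of B6 share each way with at least 100 reads in both libraries, segments with opposite majorities whose intervals exclude 50%, and 7 of the segments examined in the study. Any further segment was picked with its values in view. In the text, ENSMUSG00000076501.2 (the most distal segment) is Igkv2-137, ENSMUSG00000096632.2 is Igkv9-124, ENSMUSG00000076518.6 is Igkv2-112 and ENSMUSG00000076523.2 (the only Igkv15 segment) is Igkv15-103. Alternatives varied the read minimum, scaling, fold, depth, leading segments, gene type and the clone 4 library. The time points before 48 h and the ATAC-seq and nuclear RNA libraries were not used here, and the pool enters with single values.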

Additional observations from a re-analysis of the deposited data

Results flagged for a closer look

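In 5 segments the majority of reads lay on B6 in clone 4 and on Cast in clone 8, with both 95% intervals clear of 50%. These differences rest on 1 library per clone and were not tested. The B6 share of Igkv19-93 was -41.1 points in clone 8 relative to clone 4, that of Igkv16-104 -35.2 points, that of Igkv5-48 -30.1 points, that of Igkv12-41 -22.2 points and that of Igkv12-46 -14.8 points. In each of the 5 the second clone 4 library was also on the B6 side of 50%, at 90.4%, 97.5%, 73.2%, 85.5% and 60.5% in the same order.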

How the results depend on the processing

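No paired analysis was possible because clone 8 has 1 library, and no test was made. Of 83 alternative values, 53 stayed close to the reported value and 30 moved, 12 of them among the 17 computed with the second clone 4 library. The balance of higher and lower segments turned on B6 with that library and on Cast by percent of the library. With the second clone 4 library, 31 segments were higher and 19 lower in clone 8 on B6, 13 higher and 22 lower on Cast, and the dissimilarity rose to 0.347 on B6 and 0.366 on Cast. The B6 share of clone 4 was then 76.7%. Of 82 segments with enough reads, 19 had most reads on opposite alleles and 29 had over 80% on B6 in both clones. Region differences, an alternative chosen after seeing the data, went with that library from 3.02 to 0.112 points (distal) and from -6.38 to -3.82 (proximal) on B6, while the middle region went from 3.36 to 3.71, and on Cast they shrank from -7.12 to -0.585 (distal), from 10.3 to 0.861 (middle) and from -3.19 to -0.275 (proximal). The 3-fold threshold left 2 higher and 8 lower segments on B6 and 3 and 7 on Cast. As percent of the library, which moved the median log2 ratio on Cast from -0.02 to 0.37 and on B6 from 0.07 to -0.12, 20 Cast segments were higher and 10 lower, so that 66.7% of Cast calls were higher, against 11 higher and 14 lower by percent of allele. With no read minimum 22 Cast segments were lower. Without the leading Cast segment the dissimilarity was 0.226 and the region differences on Cast were 11.4 (middle) and -4.08 (proximal) points. The B6 share of reads in clones 8 and 4 was 55.6% and 67.0% over segments read on each allele in each library, 65.8% and 73.5% without the leading segments, and 78.0% and 80.3% as the median over segments. Requiring 3 reads on each allele left 19 segments over 80% on B6 and 4 on Cast in both, and scaling the alleles to equal totals gave 11 on Cast. Depth limits the second clone 4 library most, where 3 reads are 0.118% of its Cast allele, and the cause of its differences from the first was not tested.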
